A study of Mus musculus with 6 samples.

Results

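The genes described here are those whose transcripts were at least 3 times lower in mouse sarcoma cells carrying a hairpin against Postn than in control cells. Postn encodes periostin, a secreted matrix protein of fibroblasts and of many tumours, and was itself left aside. Members were the protein-coding genes outside chromosomes 12 and 18 whose lowest shSCR level was at least 3 times the highest shPostn level, in CPM (counts scaled by the total of their library), with a mean shSCR level of 1 CPM or more. That gave 73 genes, 74 with Postn, of the 10985 protein-coding genes outside those chromosomes with a mean shSCR level of 1 CPM or more, or 0.674% including Postn; the whole table lists 35727 genes. The rule used the contrast between the groups, so the levels below describe the members and no test of that contrast is given for them. The mirror rule, with shPostn at least 3 times shSCR, held for 18 of 10994 genes (0.164%).

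The study compared 3 shPostn libraries with 3 shSCR libraries, all of polyA RNA. Both groups derive from 1 sarcoma line, called p53 KO Ccne1 OE: mesenchymal stem cells of female C57/Bl6 p53KO mice were given Ccne1 (cyclin E1) and a red fluorescent tracer by retrovirus, then passaged through wild-type female recipients. The line was then transduced with a viral vector carrying a hairpin against Postn (shPostn) or a scrambled sequence (shSCR), transplanted into mice, and the RFP+ cells of the tumours were sorted. Deletion of p53, the Ccne1 virus and RFP are thus common to both groups, and the libraries are titled Postn-KO and Postn-WT although the protocol describes silencing. The labels give neither the number of hairpins and transduced populations nor the number of tumours or mice behind a group, so the error terms measure the spread between these libraries, and effects of the hairpin and differences between transduced populations cannot be told apart.

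A hairpin RNA is processed into a small RNA that guides cleavage of its target transcript, and it leaves the target gene in place, so some transcript usually remains. Undifferentiated pleomorphic sarcoma is a soft tissue tumour of mesenchymal cells with no clear line of differentiation, and such cells make much of the matrix around them. Basement membranes, built of laminins, collagen IV, nidogens and perlecan, border muscle fibres, nerves and vessels, and fibrillar collagens need proteases such as Adamts2 to mature.

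The targeted gene followed the labels. Postn was at 212, 475 and 644 CPM in shPostn libraries 1 to 3, against 4115, 3618 and 3201 CPM in shSCR libraries 1 to 3; the same order of libraries is used for every set of 3 values below. Column totals were alike, from 19603269 to 20376554 estimated reads, so that 1 read was worth about 0.05 CPM in each library. The shPostn 3 library stood apart by its blood cell markers: the 12 macrophage markers, all detected, summed to 106, 51.0 and 1075 CPM in shPostn, against 212, 150 and 69.2 CPM in shSCR, and the 8 leukocyte markers, all detected, to 51.4, 23.5 and 283 CPM in shPostn, against 70.9, 52.2 and 34.3 CPM in shSCR. None of these 20 markers was a member of the set. Marker sums of other cell types were low: 3.66 to 9.82 CPM in shPostn and 6.18 to 8.06 CPM in shSCR for endothelium, 4.01 to 6.19 CPM in shPostn and 3.83 to 4.48 CPM in shSCR for T and NK cells, 2.09 to 4.98 CPM in shPostn and 1.51 to 3.04 CPM in shSCR for adipocytes, 7.35 to 8.77 CPM in shPostn and 8.65 to 9.91 CPM in shSCR for keratinocytes, and 0.153 to 27.8 CPM in shPostn and 2.40 to 10.1 CPM in shSCR for erythroid cells. Pericyte and smooth muscle markers summed to 1124 to 1556 CPM in shPostn and 1130 to 1362 CPM in shSCR, and fibroblast markers to 461 to 596 CPM in shPostn and 683 to 823 CPM in shSCR, where 2 of 8 tested fibroblast markers, Cd34 and Col15a1, were lower in the edgeR fit described below, and 1 was when any 1 library but shPostn 3 was left out. Penk, another fibroblast marker, was at 43.4, 55.2 and 33.7 CPM in shPostn, against 21.9, 23.8 and 30.9 CPM in shSCR, not called. The pericyte list moved both ways, with 0 edgeR calls. Acta2 was at 375, 289 and 553 CPM in shPostn, against 181, 181 and 99.7 CPM in shSCR. Notch3 was at 1.20, 2.70 and 6.09 CPM in shPostn, against 14.6, 35.1 and 21.3 CPM in shSCR. DESeq2 called 3 markers of that list higher and 1 lower, and 1 fibroblast marker higher and 2 lower. In bulk samples, fewer cells of a type and less RNA per cell cannot be told apart.

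Most members were of low level in the control cells. Their mean shSCR level ran from 1.04 to 288 CPM, with a median of 3.90 CPM and quartiles of 1.83 and 14.4 CPM, whereas their median shPostn level was 0.406 CPM. Of the 73 genes, 32 had a mean of 5 CPM or more and 14 a mean of 20 CPM or more in shSCR. Per length, the median member was at 0.0935 RPKM, which scales reads by exon length and library total, in shPostn and at 1.19 RPKM in shSCR, while the median of the 10911 other genes was 6.96 RPKM in shPostn and 6.93 RPKM in shSCR. Summed over the members, the libraries held 87.3, 184 and 207 CPM in shPostn, against 1012, 1337 and 941 CPM in shSCR. Adamts2 made up much of that sum, and on the scale per length it was also the highest of the set, followed by Lgals7, Ptk7, P2rx3 and S1pr3.

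The share of the shSCR level that was left in shPostn, computed from the summed counts of each group, had a median of 11.3% and a highest value of 23.2%, for Csf2. It was under 5% for 17 genes, under 10% for 31 and under 20% for 69. In every shPostn library, 46 of the 73 genes were under 1 CPM, and 10 had no read in at least 1 shPostn library. By the rule the groups overlap for no member, and for 37 genes the lowest shSCR value was at least 4 times the highest shPostn value, for 13 at least 10 times. The members nearest inside the limit were Rem1, Galnt15 and Tmem151b, each with a ratio of 3.00, Foxo6 with 3.01 and Panx1 with 3.08. Genes just outside it included Olfr506 with a ratio of 2.94, Ksr2 with 2.91, Plekha6 with 2.89 and Plcxd2 with 2.84.

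**Figure D1:**
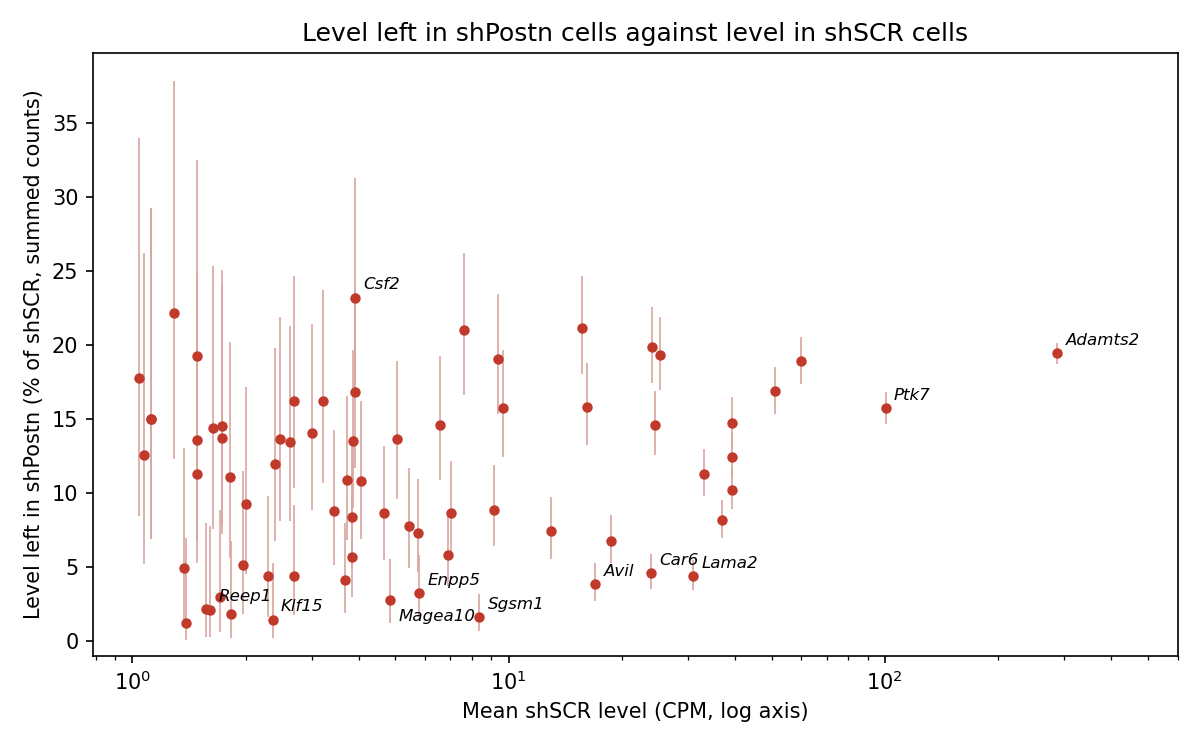
Level left in shPostn cells as a percent of the shSCR level (vertical axis, summed counts of 3 libraries per group) against the mean shSCR level in CPM (horizontal axis, log scale) for 71 of the 73 genes, 1 point per gene with its exact 95% interval of counting error. All points lie under 25%, and genes with under 5% left occur at low and at intermediate shSCR levels.

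Counts across the whole table were fitted with edgeR's quasi-likelihood test. At a Benjamini-Hochberg adjusted p under 0.05, 709 of 12819 genes tested were lower in shPostn (5.53%) and 591 were higher (4.61%), or 10.1% in either direction. Of the 73 members, 72 passed the filter on low counts, and 64 were among the lower calls; the rule used the same contrast, so nothing is read from that count. Egr4 did not pass the filter. The count of lower calls in the table was 249, 189 and 243 without shSCR 1, 2 and 3. It was 554, 376 and 1192 without shPostn 1, 2 and 3. The background itself thus changed with the libraries used, and fell whichever shSCR library was left out.

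**Figure D2:**
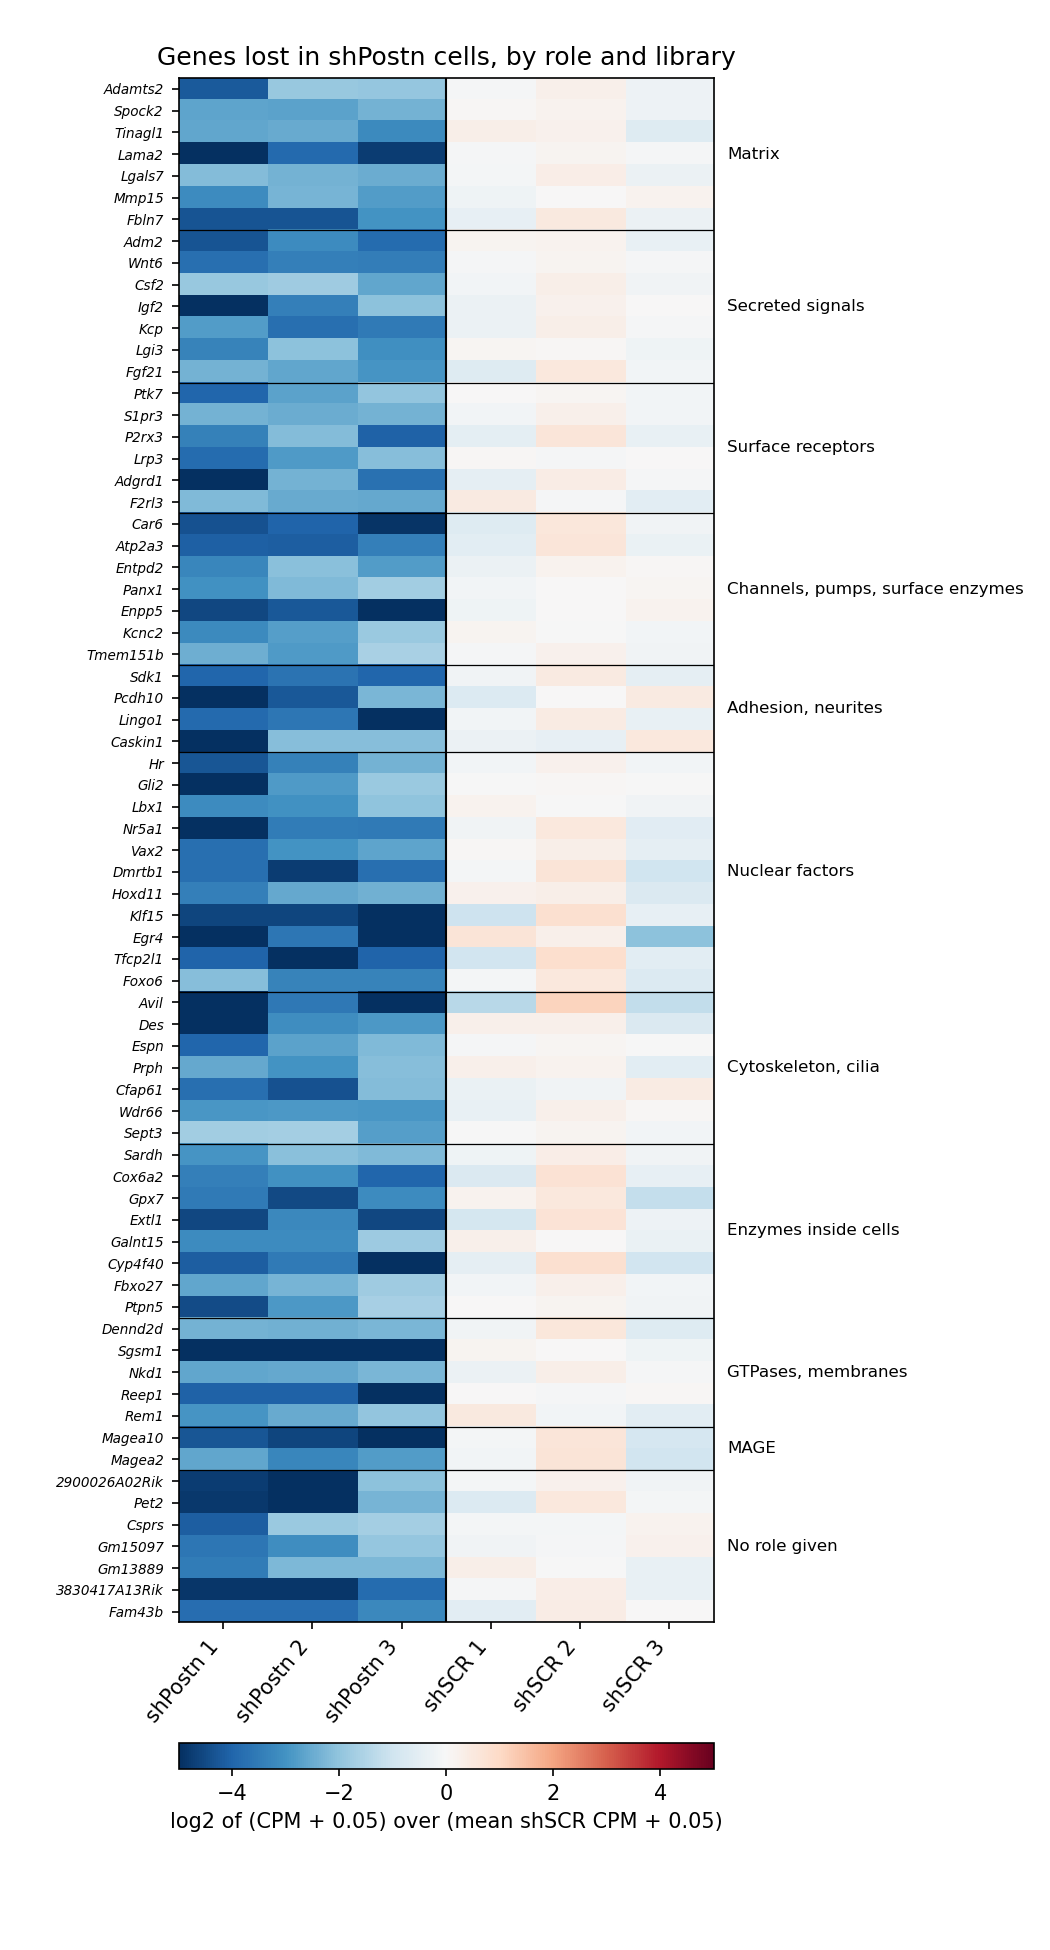
Each row is 1 of 71 genes of the set, grouped by role, and each column a library, shPostn left of shSCR. Colour gives log2 of (CPM + 0.05) over (mean shSCR CPM + 0.05), with the scale ended at −5 and 5. Every gene drawn is below its shSCR mean in the 3 shPostn libraries, and within shSCR the second library is the highest for 50 of all 73 genes.

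The start windows of the members differ in their content of CpG, the dinucleotide that DNA methylation acts on and that is dense at the promoters of widely expressed genes. RefSeq's windows on GRCm38.p6, from 250 bases before to 50 bases after the start, were matched for 56 of the 73 genes. Among them, 25 (44.6%) had a CpG content over 0.6 of that expected from their C and G, against 73.9% of 8821 other genes; the medians were 0.517 for the members and 0.774 for the other genes. In the range between the members' quartiles of shSCR level, it was 15 of 29 members (51.7%) and 60.6% of 2071 other genes, with medians of 0.674 and 0.682. The gap to other genes was thus smaller among genes of like level. The 4 windows below are given because they show a CpG-poor and a CpG-rich member (Lama2 and Klf15) and a pair of neighbouring members (Tfcp2l1 and Gli2). They are written 5′ to 3′ on the strand of the gene, with every CG in capitals. The Lama2 window (chr10:27616893-27617192, minus strand) holds 1 CpG, and the Klf15 window (chr6:90462326-90462625, plus strand) holds 47. The Lama2 window lies inside the annotated gene (chr10:26980036-27619758), away from its start at 27619758. Windows of some other members, among them Nkd1, Extl1 and Magea2, also lie away from the annotated gene start. The Tfcp2l1 window (chr1:118627695-118627994, plus strand) holds 21, and the Gli2 window (chr1:119053570-119053869, minus strand) holds 28.
Lama2: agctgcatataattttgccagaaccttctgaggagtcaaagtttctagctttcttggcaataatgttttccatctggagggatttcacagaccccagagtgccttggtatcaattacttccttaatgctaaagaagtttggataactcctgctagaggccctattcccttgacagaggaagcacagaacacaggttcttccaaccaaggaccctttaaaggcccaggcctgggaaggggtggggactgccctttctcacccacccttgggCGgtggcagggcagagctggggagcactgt
Klf15: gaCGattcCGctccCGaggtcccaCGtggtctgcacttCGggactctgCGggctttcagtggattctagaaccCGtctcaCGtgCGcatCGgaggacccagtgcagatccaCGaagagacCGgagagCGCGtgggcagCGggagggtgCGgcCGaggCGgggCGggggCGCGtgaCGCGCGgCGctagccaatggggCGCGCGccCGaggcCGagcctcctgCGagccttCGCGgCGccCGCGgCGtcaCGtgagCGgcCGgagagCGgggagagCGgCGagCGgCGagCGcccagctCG
Tfcp2l1: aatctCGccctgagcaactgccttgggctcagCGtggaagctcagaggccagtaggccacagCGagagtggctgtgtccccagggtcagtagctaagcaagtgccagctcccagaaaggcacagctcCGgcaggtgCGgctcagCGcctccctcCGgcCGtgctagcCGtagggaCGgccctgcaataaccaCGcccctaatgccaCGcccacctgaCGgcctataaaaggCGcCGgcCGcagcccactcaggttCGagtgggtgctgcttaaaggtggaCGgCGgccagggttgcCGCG
Gli2: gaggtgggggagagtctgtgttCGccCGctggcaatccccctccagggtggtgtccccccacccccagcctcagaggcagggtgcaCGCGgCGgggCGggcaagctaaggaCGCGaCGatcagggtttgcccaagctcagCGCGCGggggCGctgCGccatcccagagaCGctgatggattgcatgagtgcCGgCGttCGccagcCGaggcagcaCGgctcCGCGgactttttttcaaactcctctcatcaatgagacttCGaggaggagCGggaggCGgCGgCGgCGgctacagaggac

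Short motifs were looked up on both strands of the same windows. The GLI motif GACCACCCA was in 0 of the 56 windows, against 0.244% of all 27025 RefSeq windows, and the cyclic AMP response element TGACGTCA was in 0, against 1.88%. Among the windows of the other genes these shares were 0.204% and 3.26%. The GC box GGGCGG was in 58.9% of the members' windows and 35.9% of all windows, and 65.7% of those of the other genes. In the level range between the members' quartiles it was in 62.1% of the members' windows and 56.2% of the others. The AP-1 motif TGAGTCA was in 7.14% of the members' windows, 3.54% of those of the other genes and 5.17% of all windows; in the level range it was in 3.45% of the members' windows and 3.96% of the others. TATAAA was in 5.36% of the members' windows, 6.93% of those of the other genes and 14.2% of all windows. In the level range it was in 3.45% of the members' windows and 8.55% of the others. A missing match says only that these letters are not in the window.

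**Figure D3:**
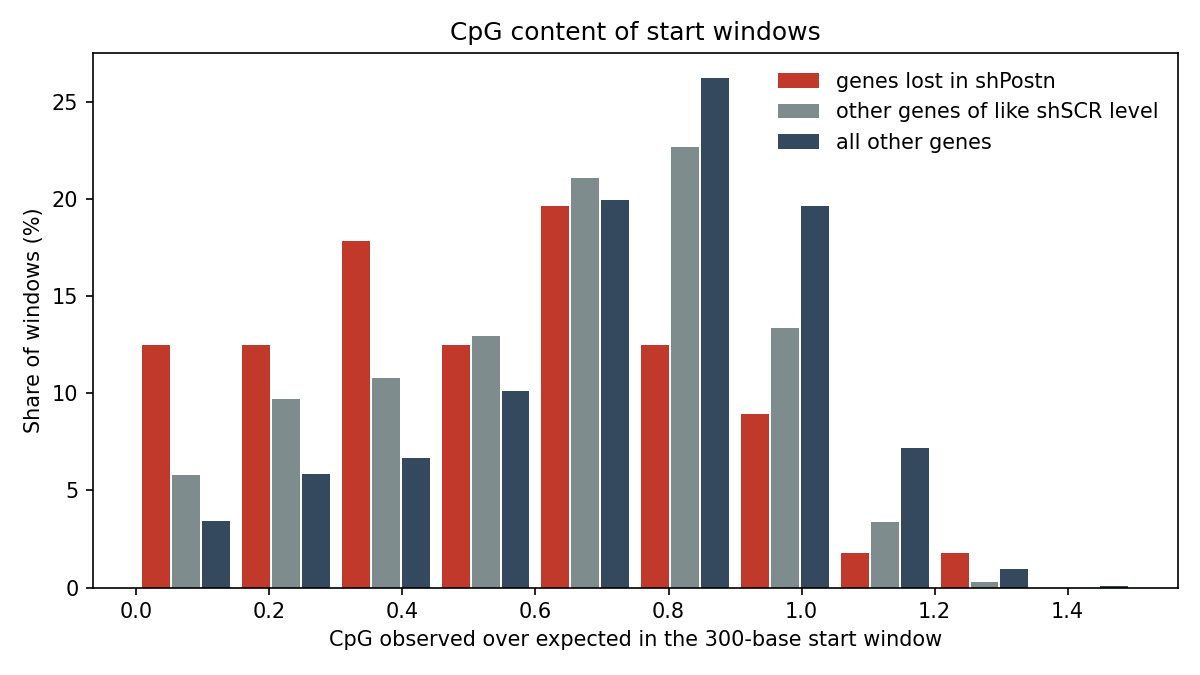
Distribution of the CpG content of 300-base start windows, as observed over expected CpG (horizontal axis), given as the share of windows in percent (vertical axis). Drawn are the 56 members with a window, the other genes between the members' quartiles of shSCR level, and all other genes. Of the 56 members, 29 lie in that level range. Members lie further to the left than all other genes (median 0.517 against 0.774).

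The set held 7 genes of the extracellular matrix and its turnover. Adamts2, the protease that removes the amino-terminal propeptide of fibrillar procollagens (chr11:50602084-50807573, plus strand), measured 15.6, 77.4 and 75.3 CPM in shPostn, against 276, 346 and 241 CPM in shSCR. Its mean was 56.1 ± 35.1 CPM in shPostn and 288 ± 53.4 CPM in shSCR (SD, n = 3 each), which left 19.4% (95% interval 18.7% to 20.2%). The shPostn 1 library was lower than the other shPostn libraries. These intervals, exact and conditional on the summed counts, cover counting error only. Lama2, the alpha 2 chain of laminin in the basement membranes of muscle and nerve (chr10:26980036-27619758, minus strand), measured 0.903, 2.04 and 1.11 CPM in shPostn, against 29.3, 33.7 and 29.8 CPM in shSCR. That left 4.35% (3.44% to 5.45%), from 80 reads in shPostn and 1871 reads in shSCR, and the libraries of each group lay close together relative to the gap between the groups. Spock2, a secreted proteoglycan of the SPARC family also called testican 2, was at 8.18, 7.96 and 9.82 CPM in shPostn, against 52.8, 58.0 and 42.9 CPM in shSCR. Tinagl1, a matrix protein related to cathepsins that lacks protease activity, was at 6.37, 6.73 and 4.28 CPM in shPostn, against 47.7, 45.0 and 25.04 CPM in shSCR. The third library was the lowest of its group for Tinagl1 in both groups. Lgals7, galectin 7, a lectin known from stratified epithelia, was at 5.37, 4.69 and 4.28 CPM in shPostn, against 22.3, 30.03 and 19.9 CPM in shSCR. Mmp15, a membrane-anchored metalloproteinase, was at 0.702, 1.28 and 0.906 CPM in shPostn, against 5.63, 6.63 and 7.51 CPM in shSCR. Fbln7, a fibulin, kept 5.13% of its shSCR level.

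**Figure D4:**
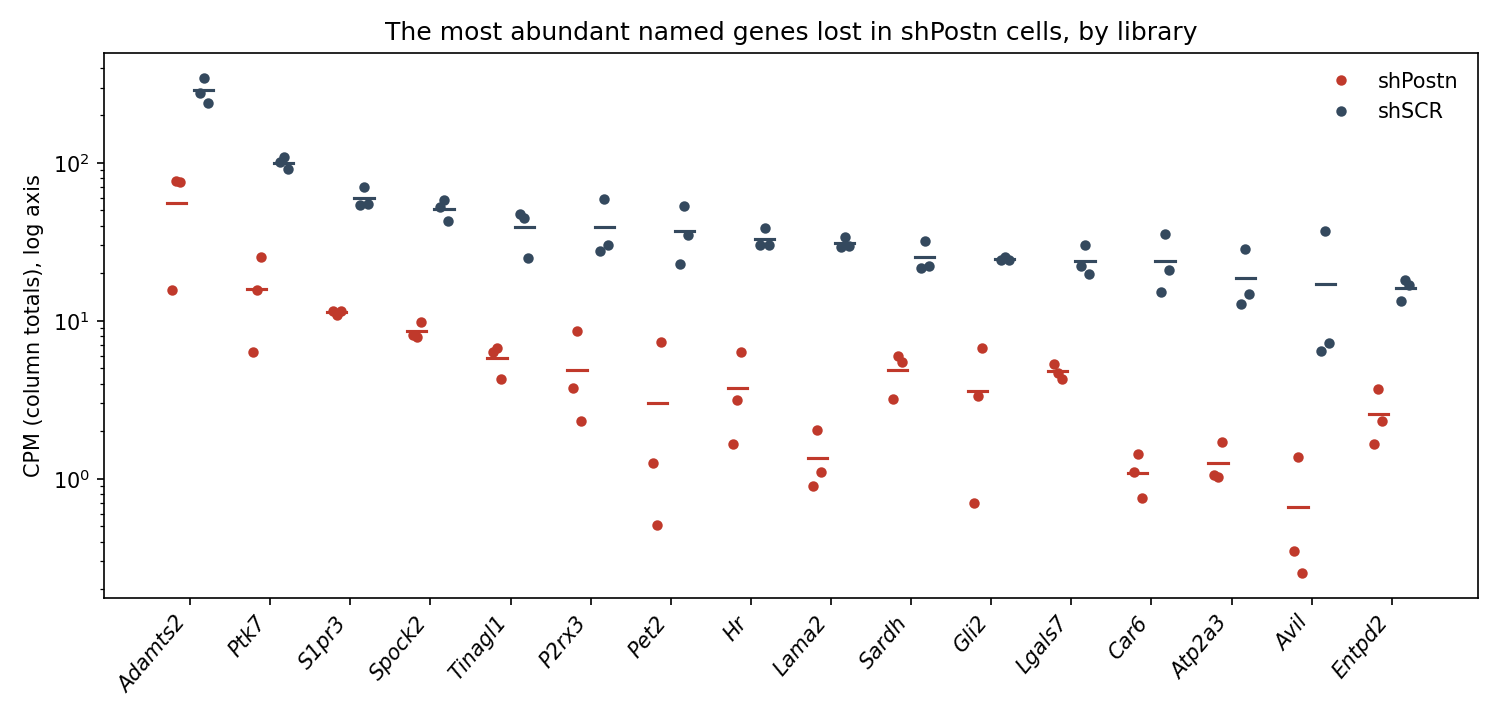
CPM per library on a log axis for the most abundant named genes of the set, shPostn points left of shSCR points for each gene and a short line at each group mean. For each gene the 3 shPostn points lie below the 3 shSCR points, with Adamts2 at 15.6 to 77.4 CPM in shPostn and 241 to 346 CPM in shSCR.

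Secreted signals and their modulators made up 7 members, with mean shSCR levels of 1.49 to 12.9 CPM. Adm2, adrenomedullin 2, a peptide hormone of the calcitonin family, was at 0.602, 1.43 and 0.856 CPM in shPostn, against 14.2, 14.7 and 9.93 CPM in shSCR, which left 7.40%. Wnt6, a WNT ligand, was at 0.351, 0.459 and 0.453 CPM in shPostn, against 5.19, 5.94 and 5.14 CPM in shSCR, with the libraries of each group close together. Csf2, the granulocyte-macrophage colony-stimulating factor that drives growth and survival of myeloid cells, was at 1.0034, 1.12 and 0.604 CPM in shPostn, against 3.51, 4.76 and 3.48 CPM in shSCR. It kept 23.2% (16.9% to 31.3%), and its shPostn values were lowest in the library with the highest macrophage markers. Igf2, an insulin-like growth factor, was at 0.0502, 0.306 and 0.856 CPM in shPostn, against 3.06, 4.32 and 3.78 CPM in shSCR, with 1 read in shPostn 1. The annotated gene Gm49394 overlaps Igf2 on the same strand, so reads could be split between them. Kcp, a secreted modulator of BMP signals, kept 8.81%, Lgi3, a secreted leucine-rich repeat protein, kept 13.7%, and Fgf21, a fibroblast growth factor that acts as a metabolic hormone, kept 13.6%.

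Cell surface receptors made up another 7 members, the following among them. Ptk7, a receptor-like pseudokinase of the WNT planar cell polarity pathway (chr17:46564471-46629504, minus strand), was at 6.37, 15.8 and 25.3 CPM in shPostn, against 102, 109 and 91.3 CPM in shSCR. The means were 15.8 ± 9.48 CPM in shPostn and 101 ± 8.77 CPM in shSCR (SD, n = 3 each), and the shPostn 3 library was the highest of its group, as it was for Postn. S1pr3, a receptor for sphingosine 1-phosphate (chr13:51408639-51422797, plus strand), was at 11.5, 10.8 and 11.6 CPM in shPostn, against 54.2, 70.5 and 55.0 CPM in shSCR. Its means were 11.3 ± 0.431 CPM in shPostn and 59.9 ± 9.19 CPM in shSCR (SD, n = 3 each), with shPostn libraries that hardly differed. P2rx3, an ATP-gated cation channel of sensory neurons (chr2:84998583-85037462, minus strand), was at 3.76, 8.62 and 2.32 CPM in shPostn, against 27.8, 59.3 and 30.3 CPM in shSCR, and the second library was the highest in both groups. Lrp3, a member of the LDL receptor family, kept 13.6%, the adhesion G protein-coupled receptor Adgrd1 kept 8.66%, and F2rl3, a protease-activated receptor for thrombin, kept 14.97%.

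A further 7 members are channels, pumps or enzymes of the cell surface and secretory pathway. Car6, a secreted carbonic anhydrase known from saliva, was at 1.10, 1.43 and 0.755 CPM in shPostn, against 15.1, 35.4 and 20.96 CPM in shSCR, leaving 4.58%. Atp2a3, the SERCA3 calcium pump of the endoplasmic reticulum, was at 1.05, 1.02 and 1.71 CPM in shPostn, against 12.8, 28.5 and 14.8 CPM in shSCR. The second shSCR library was the highest for both. Entpd2, an ectoenzyme that splits extracellular ATP, was at 1.66, 3.72 and 2.32 CPM in shPostn, against 13.3, 18.3 and 16.9 CPM in shSCR. It overlaps Npdc1 on the same strand, and Npdc1 had a log2 fold change of −0.35 (SE 0.07, adjusted p = 0.0227, and 0.0729 to 0.0937 without any 1 shSCR library). Panx1, the pannexin channel through which cells release ATP, was at 0.903, 1.63 and 2.27 CPM in shPostn, against 6.97, 7.66 and 8.26 CPM in shSCR, with groups close to the limit of the rule. Enpp5, a membrane protein of the ectonucleotide pyrophosphatase family, was at 0.201, 0.255 and 0.101 CPM in shPostn, against 4.99, 5.84 and 6.499 CPM in shSCR and kept 3.21% (1.59% to 5.81%). The potassium channel gene Kcnc2 kept 16.2%, and Tmem151b, which encodes a predicted membrane protein, kept 17.8% of 1.04 CPM in shSCR.

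Neural adhesion and synapses were represented by 4 members. Lingo1, a leucine-rich repeat protein of the Nogo receptor complex that limits axon growth, was at 0.201, 0.255 and 0 CPM in shPostn, against 3.31, 4.86 and 2.82 CPM in shSCR, leaving 4.13% (1.86% to 7.98%). Sdk1, sidekick 1, an adhesion molecule of the immunoglobulin superfamily, was at 0.201, 0.255 and 0.201 CPM in shPostn, against 3.41, 5.30 and 2.82 CPM in shSCR. Pcdh10, a delta protocadherin, was at 0.0502, 0.153 and 0.755 CPM in shPostn, against 2.37, 3.93 and 5.19 CPM in shSCR, and its shPostn values followed the order of Postn. Caskin1, a synaptic scaffold protein, kept 13.7%.

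The set held 11 nuclear factors. Hr, a nuclear corepressor needed for hair growth (chr14:70552212-70573548, plus strand), was at 1.66, 3.16 and 6.39 CPM in shPostn, against 30.3, 38.5 and 30.4 CPM in shSCR. Gli2, the main activating transcription factor of hedgehog signalling (chr1:118834132-119053619, minus strand), was at 0.702, 3.37 and 6.70 CPM in shPostn, against 24.3, 25.3 and 24.2 CPM in shSCR. Its means were 3.59 ± 3.0034 CPM in shPostn and 24.6 ± 0.607 CPM in shSCR (SD, n = 3 each). In both genes the shPostn libraries spread widely, in the order of Postn, while the shSCR libraries lay close together. Lbx1, a homeobox factor of muscle precursors and spinal cord neurons, was at 1.05, 1.12 and 2.37 CPM in shPostn, against 10.8, 9.62 and 8.51 CPM in shSCR. Nr5a1, steroidogenic factor 1 of the adrenal and gonads, was at 0.10034, 0.561 and 0.554 CPM in shPostn, against 6.08, 10.01 and 4.64 CPM in shSCR. Vax2, a homeobox factor of the ventral eye, kept 10.8%, and Hoxd11, a limb and axial patterning factor, kept 13.4%. Dmrtb1, Klf15, Egr4 and Tfcp2l1 each kept under 5%. Dmrtb1, a DM domain factor that controls entry of male germ cells into meiosis, was at 0.151, 0.0510 and 0.151 CPM in shPostn, against 2.52, 4.22 and 1.31 CPM in shSCR. Klf15, a Krüppel-like factor induced by glucocorticoids in muscle, liver and fat, was at 0.0502, 0.0510 and 0 CPM in shPostn, against 1.14, 4.17 and 1.76 CPM in shSCR. It kept 1.42% (0.171% to 5.24%), from 2 reads in shPostn and 143 reads in shSCR. Egr4, an early growth response factor, was at 0, 0.102 and 0 CPM in shPostn, against 2.87, 2.21 and 0.403 CPM in shSCR, a spread within shSCR that reached from 0.403 to 2.87 CPM. Tfcp2l1, a CP2 family factor of naive pluripotent cells and kidney, was at 0.0502, 0 and 0.0504 CPM in shPostn, against 0.791, 2.85 and 1.06 CPM in shSCR, that is 2 reads in shPostn and 95 reads in shSCR. Foxo6, a forkhead factor, kept 11.3%.

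Of the 8 cytoskeletal and ciliary members, several are known from muscle and nerve. Avil, advillin, an actin-binding protein of sensory neurons and tuft cells, was at 0.351, 1.38 and 0.252 CPM in shPostn, against 6.47, 37.3 and 7.20 CPM in shSCR. Its second shSCR library was 5.18 times the next, so its shSCR mean of 16.99 ± 17.6 CPM (SD, n = 3) rests on that library. Des, desmin, the intermediate filament of muscle, was at 0.201, 1.02 and 1.21 CPM in shPostn, against 11.02, 10.9 and 5.44 CPM in shSCR. Prph, peripherin, the intermediate filament of peripheral neurons, was at 0.502, 0.357 and 0.705 CPM in shPostn, against 3.81, 3.63 and 2.22 CPM in shSCR. Espn, an actin-bundling protein of hair cell stereocilia, kept 13.5%, the cilia genes Cfap61 and Wdr66 kept 9.25% and 11.1%, and Sept3, a neuronal septin, kept 22.2%. The markers of the tissues these genes are known from were low. The 13 skeletal muscle markers summed to 1.45, 2.96 and 3.98 CPM in shPostn, against 3.01, 3.48 and 3.17 CPM in shSCR, and Pax7, Myod1 and Myf5 had no read in any library. Of 10 Schwann cell and neuronal markers, Foxd3 had no read in any library, Rbfox3 had 1 read in all, and the sum of 33.3, 21.8 and 31.5 CPM in shPostn, against 46.8, 39.8 and 37.2 CPM in shSCR, was mostly Tubb3. Of the 3 muscle markers and 3 neural markers that could be tested, 0 were called by edgeR; 3 had an unadjusted p under 0.05, and DESeq2 called 1 of each list, as lower. Without shPostn 3, edgeR called 2 of the 3 muscle markers, as lower, and limma-voom called 1 with all libraries. The part of such cells in the members' values was not tested.

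Intracellular enzymes and their subunits made up 8 members. Sardh, the mitochondrial enzyme that turns sarcosine into glycine, was at 3.21, 5.97 and 5.49 CPM in shPostn, against 21.7, 31.9 and 22.2 CPM in shSCR, leaving 19.3%. Cox6a2, the heart and muscle form of a cytochrome c oxidase subunit, was at 0.602, 0.816 and 0.403 CPM in shPostn, against 4.25, 11.6 and 5.19 CPM in shSCR. Gpx7, a peroxidase of the endoplasmic reticulum, was at 0.452, 0.204 and 0.604 CPM in shPostn, against 6.47, 8.24 and 2.52 CPM in shSCR. Both varied widely within shSCR. Extl1, a glycosyltransferase of the exostosin family, kept 4.39%. Cyp4f40, a cytochrome P450 gene, was at 0.0502, 0.102 and 0 CPM in shPostn, against 1.24, 3.04 and 0.857 CPM in shSCR, that is 3 reads in shPostn and 104 reads in shSCR. The 3 others were Galnt15, a transferase that starts O-glycans, Fbxo27, an F-box protein that recognises glycoproteins, and Ptpn5, a tyrosine phosphatase of striatal neurons, which kept 14.5%, 19.2% and 12.5%.

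GTPase control, membrane shape and cytoplasmic signalling were represented by 5 members. Sgsm1, a GTPase-activating protein for Rab and Rap proteins (chr5:113243220-113310786, minus strand), was at 0.151, 0.204 and 0.0504 CPM in shPostn, against 9.29, 8.59 and 7.20 CPM in shSCR. With 8 reads in shPostn and 506 reads in shSCR it kept 1.61% (0.691% to 3.20%), and its lowest shSCR value was 35.3 times its highest shPostn value. Reep1, a protein that shapes the tubules of the endoplasmic reticulum, was at 0.0502, 0.0510 and 0 CPM in shPostn, against 1.63, 1.52 and 1.66 CPM in shSCR, with shSCR libraries almost alike. Dennd2d, a Rab guanine nucleotide exchange factor, was at 1.76, 1.73 and 1.86 CPM in shPostn, against 8.35, 13.7 and 5.996 CPM in shSCR. Nkd1, a negative feedback regulator of WNT signals, was at 0.602, 0.612 and 0.755 CPM in shPostn, against 3.16, 4.81 and 3.73 CPM in shSCR. Rem1, a small GTPase of the RGK family, kept 14.97%.

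Both MAGE genes of the set lie on the X chromosome and belong to a family that is normally expressed in the germ line and in tumours. Magea10 was at 0.201, 0.153 and 0.0504 CPM in shPostn, against 4.497, 7.36 and 2.67 CPM in shSCR, leaving 2.77% (1.18% to 5.53%). Magea2 was at 0.351, 0.204 and 0.302 CPM in shPostn, against 2.17, 3.78 and 1.21 CPM in shSCR, and its value is uncertain, since its annotated span overlaps the near-identical copies Magea5 and Magea1 on the same strand. The 7 members with no role given included 4 with clone or predicted names, as well as Fam43b, which kept 4.91%. Pet2, an X-linked gene, was at 1.25, 0.510 and 7.30 CPM in shPostn, against 23.0, 53.1 and 35.0 CPM in shSCR. Csprs, a gene of a repeated family on an unplaced scaffold, was at 0.853, 4.34 and 4.73 CPM in shPostn, against 14.7, 14.6 and 17.6 CPM in shSCR, and its reads may be shared with other copies. In all, 15 members overlap another annotated protein-coding gene, 5 of them on the same strand. Of the 73 genes, 5 lie on the X chromosome (6.85%), against 3.32% of the other genes.

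The members varied more among libraries than other genes. Their median coefficient of variation was 52.0% over the shPostn libraries and 23.5% over the shSCR libraries, against 9.15% and 6.31% for the other genes. In the range between the members' quartiles of shSCR level, it was 49.0% and 27.1% for 37 members. For the 2606 other genes in that range it was 15.7% and 11.3%. Within shSCR, 50 of the 73 genes (68.5%) were highest in the second library, against 37.3% of the other genes and 35.5% of those in the level range, where it was 22 of 37 members (59.5%). For 5 members (6.85%) the second shSCR library was at least 2 times both others, against 0.211% of the other genes. These were Avil, Tfcp2l1, Cyp4f40, Klf15 and Cox6a2. The other genes had a median shSCR level of 32.6 CPM, while Klf15, Cyp4f40 and Tfcp2l1 averaged 2.36, 1.71 and 1.57 CPM in shSCR. That share was not computed for other genes of like level. Within shPostn, 38 members (52.1%) were lowest in the first library, which also had the least Postn, against 41.1% of the other genes. In the level range it was 22 of 37 members (59.5%) and 47.8% of the others. The third shPostn library was the highest for 36 members (49.3%), against 36.1% of the other genes. For this library the level range gave 19 of 37 members (51.4%) and 43.9% of the others. The full order of Postn over the shPostn libraries was shared by 23 members (31.5%), among them Gli2, Hr and Ptk7, against 22.4% of the other genes. These shares describe single libraries, and the rule used the same values. In shPostn the members had far fewer reads than the genes set beside them, and counting error widens the spread of so few reads.

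Leaving out shPostn 3, the library with the most macrophage transcripts, the same limits held for 160 genes besides Postn: all 73 members and 87 more. The split follows from the rule: all members must remain, and the 87 are the genes that only the shPostn 3 value kept out. None of the 87 was on the leukocyte or macrophage list, but 5 were on other cell type lists: Hbb-bs and Hba-a2 (erythroid), Notch3 (pericytes and smooth muscle), Tnni2 (skeletal muscle) and Col15a1 (fibroblasts). The globin gene Hbb-bs was at 0.0502, 0.0510 and 11.7 CPM in shPostn, against 3.90, 0.834 and 1.36 CPM in shSCR, so shPostn 3 was above every shSCR library. The most abundant of the 87, by CPM, included Egfr, the epidermal growth factor receptor, at 20.2, 20.05 and 51.2 CPM in shPostn, against 85.2, 110.2 and 90.0 CPM in shSCR. Thbs2, the matrix glycoprotein thrombospondin 2, was at 7.83, 18.1 and 109.6 CPM in shPostn, against 73.7, 95.8 and 68.8 CPM in shSCR. Eng, the TGF-beta coreceptor endoglin, was at 4.82, 7.86 and 14.7 CPM in shPostn, against 45.5, 53.6 and 40.4 CPM in shSCR. Thbs2 in shPostn 3 was thus above all shSCR values, while Eng stayed below them in every shPostn library. The part of other cells in this library's values was not tested.

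Most neighbouring genes were not called. Within 1 Mb of a member's start, 1424 other genes were tested, of which 88 were lower (6.18%) and 38 higher (2.67%), with a median log2 fold change of −0.02; over all genes tested the median was 0.01. Without shSCR 2 the counts were 13 and 8, and without shPostn 3 they were 150 and 71. Of tested genes that did not meet the rule outside chromosomes 12 and 18, 3.94% were lower and 3.54% higher. Distances here are between the starts of genes. The nearest of these tested genes was a median of 43.7 kb away for the 70 members with one within 1 Mb. Untested genes, some of which overlap a member, were passed over. Of the 70 nearest tested genes, 5 were called lower and 1 higher. Enpp4, 27.0 kb from Enpp5 and of the same family, was at 5.72, 8.77 and 4.68 CPM in shPostn, against 11.3, 13.8 and 17.3 CPM in shSCR, a log2 fold change of −1.14 (SE 0.26, adjusted p = 0.0414). Its adjusted p was 0.0689 to 0.138 without shPostn 1 or any 1 shSCR library.

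In 6 cases the starts of 2 members lay within 1 Mb of each other, and the distances given for these pairs are between starts. Tfcp2l1 and Gli2, whose start windows are given above, lie 426 kb apart on chromosome 1 with no tested gene between them. Lgi3 and Hr lie 21.5 kb apart on chromosome 14, with Reep4 between them at a log2 fold change of −0.18, not called. Wnt6 and Des lie 588 kb apart on chromosome 1, with 14 tested genes between them (median −0.12). Dmrtb1 and Gpx7 lie 723 kb apart on chromosome 4 with 10 tested genes between them, and Fbxo27 and Lgals7 171 kb apart on chromosome 7 with 9. Of the 34 genes tested between pairs, 0 were called by edgeR, while 7 had an unadjusted p under 0.05 and DESeq2 called 2. The last pair was Sgsm1 with a clone-named gene 89.6 kb away on chromosome 5.

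**Figure D5:**
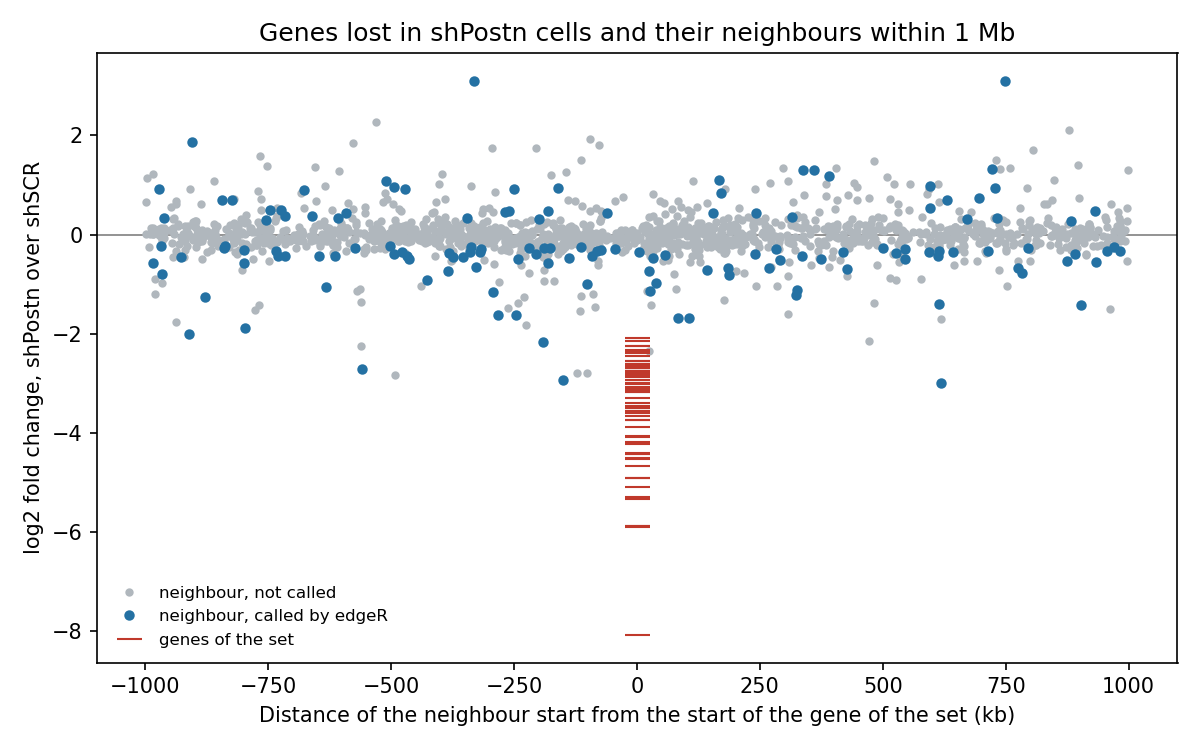
log2 fold change of shPostn over shSCR (vertical axis) for tested genes within 1 Mb of a gene of the set, against the distance of their starts in kb (horizontal axis); the genes of the set are drawn at distance 0. The neighbours centre on a median of −0.02, and the genes of the set lie well below.

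Relatives of the members by name were mostly not called. Over 39 symbol stems with 3 to 60 genes each, 234 genes that are no members were tested, of which 8 (3.42%) were lower and 8 (3.42%) higher, with a median log2 fold change of 0.03. These shares are below those of all genes tested, but not without shPostn 3, where 30 relatives were lower (12.8%) and 19 higher (8.12%), against 9.20% lower and 7.93% higher over all genes tested. Without shSCR 2, 0 relatives were lower and 1 was higher. Of 15 tested genes of hedgehog signalling beside Gli2, 1 was lower (median log2 fold change −0.01), with 2 lower without shPostn 3 and 0 without any 1 other library. Mean levels were 36.4 CPM in shPostn and 30.3 CPM in shSCR for the hedgehog receptor Ptch1, and Ptch1, Smo, Gli3 and the target gene Gli1 were not called. Smo averaged 245 CPM in shPostn and 247 CPM in shSCR, Gli3 82.3 CPM in shPostn and 89.2 CPM in shSCR, and Gli1 1.96 CPM in shPostn and 1.64 CPM in shSCR.

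Counts in the lists below stand beside 5.53% lower and 4.61% higher over all genes tested. The list counts leave out the members, and over tested genes that did not meet the rule the shares were 5.05% lower and 4.64% higher. Among 24 tested laminins and laminin receptors beside Lama2, 1 was lower and 2 were higher. At an unadjusted p under 0.05, 5 were lower and 2 higher. The alpha chain gene Lama4 averaged 41.1 CPM in shPostn and 128 CPM in shSCR (log2 fold change −1.65, SE 0.68). Lama5 averaged 1.33 CPM in shPostn and 2.62 CPM in shSCR (log2 fold change −0.98, SE 0.35). Neither was called, nor was Lama3 (log2 fold change −0.13, SE 0.35). Among 16 other basement membrane genes beside Tinagl1, 4 were lower and 1 was higher (median −0.39), while without shSCR 2 or shSCR 3 the lower calls numbered 0 and without shPostn 3 they numbered 7. Lamc1, the laminin gamma chain that joins Lama2 in muscle, had a log2 fold change of −0.54 (SE 0.11, adjusted p = 0.0280). Nid1 and Hspg2, the linker nidogen 1 and the proteoglycan perlecan, had log2 fold changes of −0.38 (SE 0.06, adjusted p = 0.0138) and −0.46 (SE 0.08, adjusted p = 0.0190). The integrin gene Itga3 was higher by 1.88 on the log2 scale (SE 0.27, adjusted p = 0.0122). Leaving out shSCR 2 or shSCR 3 ended all 4 calls, leaving out shSCR 1 ended those of Lamc1 and Hspg2, and leaving out shPostn 2 those of Lamc1 and Nid1. The adjusted p was then 0.0768 to 0.120 for Lamc1, 0.0527 to 0.0697 for Nid1, 0.0686 to 0.103 for Hspg2 and 0.0568 to 0.0635 for Itga3. Of 10 genes of procollagen processing beside Adamts2, 1 was called, as higher. Its paralog Adamts14 averaged 222 CPM in shPostn and 262 CPM in shSCR, and the carboxy-terminal protease Bmp1 350.3 CPM in shPostn and 328 CPM in shSCR; neither was called.

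Of 4 tested genes of the Nogo receptor complex beside Lingo1, 2 were called, both as lower (median −0.82). Rtn4rl1 and Rtn4rl2, paralogs of the Nogo receptor, had log2 fold changes of −1.77 (SE 0.36, adjusted p = 0.0274) and −2.94 (SE 0.66, adjusted p = 0.0355). Rtn4rl1 was at 0.953, 0.918 and 2.06 CPM in shPostn, against 3.66, 5.05 and 4.74 CPM in shSCR, and Rtn4rl2 at 0.0502, 0.102 and 0.453 CPM in shPostn, against 1.28, 2.01 and 1.46 CPM in shSCR. Both calls were lost when any library but shPostn 3 was left out, with adjusted p-values of 0.0654 to 0.119 for Rtn4rl1 and 0.0682 to 0.146 for Rtn4rl2.

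Among 27 WNT ligands, receptors and feedback genes beside Wnt6, Ptk7 and Nkd1, 1 was called, as higher (median 0.05), whereas 5 were lower and 4 higher at an unadjusted p under 0.05 and DESeq2 called 3 each way. Among 10 genes of sphingosine 1-phosphate beside S1pr3, 1 was lower and 2 were higher. The receptors S1pr1 and S1pr2 averaged 46.6 and 99.3 CPM in shPostn, against 42.6 and 96.4 CPM in shSCR, and were not called. Plpp3, an ectoenzyme that removes phosphate from lipids of this kind, was at 109.8, 109.4 and 169.9 CPM in shPostn, against 36.5, 41.2 and 37.6 CPM in shSCR, a log2 fold change of 1.76 (SE 0.18, adjusted p = 0.00556). It stayed under 0.05 whichever library was left out. Among 11 genes of ATP release and purinergic signalling beside P2rx3, Panx1 and Entpd2, a list written after the members were known, 2 were called, both as higher. These included Nt5e, the ectoenzyme CD73 that makes adenosine, with a log2 fold change of 1.41 (SE 0.11, adjusted p = 0.00242, at most 0.0190 without any 1 library).

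Of the other lists, 13 Krüppel-like factors beside Klf15, 21 Rab GTPase-activating proteins beside Sgsm1, 5 genes of the HoxD cluster beside Hoxd11 and 2 CP2 and grainyhead factors beside Tfcp2l1 had no call in either direction by edgeR. At an unadjusted p under 0.05 there were 2 lower and 2 higher Krüppel-like factors, 1 higher gene each among the Rab GTPase-activating proteins and the HoxD genes, and none among the CP2 and grainyhead factors; DESeq2 called 1 Krüppel-like factor, as lower, and none of the others. Of 15 glucocorticoid response genes beside Klf15, 1 was lower, and of 13 genes that shape the endoplasmic reticulum beside Reep1, 1 was higher. At an unadjusted p under 0.05, 5 glucocorticoid response genes were lower and 1 higher, and DESeq2 called 5 lower and 0 higher. Of the endoplasmic reticulum genes, 3 were lower and 2 higher at an unadjusted p under 0.05, and DESeq2 called 1 lower and 2 higher. Of 8 intermediate filament genes beside Des and Prph, 1 was lower, Lmnb1, which encodes lamin B1 (log2 fold change −0.62, SE 0.07, adjusted p = 0.00458). Of 7 genes of membrane-type metalloproteinases and their inhibitors beside Mmp15, 1 was lower and 1 was higher, of 8 ectonucleotidase genes beside Enpp5 and Entpd2, 1 was lower and 1 higher, and of 4 MAGE genes beside Magea2 and Magea10, 1 was higher. The list of endoglin and BMP9 signalling, which holds no member, had 2 lower of 18. Calls of single genes in these lists changed when libraries were left out, for glucocorticoid response genes between 0 and 7.

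A list without a member, chosen with earlier results of these data known, had more calls. Of 22 genes of the unfolded protein response and of ATF4, the stress factor that drives amino acid supply, 15 were lower and 1 was higher (median −0.62), against 5.53% lower, 4.61% higher and a median of 0.01 over all genes tested. Without 1 library the lower calls numbered 6 (without shSCR 2) to 16 (without shPostn 3). Slc7a11, the cystine transporter, was at 14.2, 12.9 and 11.9 CPM in shPostn, against 38.5, 42.2 and 39.8 CPM in shSCR, a log2 fold change of −1.62 (SE 0.10, adjusted p = 0.00114). For the pseudokinase gene Trib3, a target of ATF4, the levels were 9.88, 14.4 and 9.21 CPM in shPostn, against 33.0, 36.8 and 34.3 CPM in shSCR, a log2 fold change of −1.63 (SE 0.17, adjusted p = 0.00429). None of the 22 met the rule for the set, and the calls of both named genes held whichever library was left out.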

How the data were processed

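PolyA RNA of RFP+ cells sorted from mouse sarcomas was sequenced from strand-specific libraries in 3 shPostn and 3 shSCR samples. The authors deposited 1 estimated count per gene and library, made with Salmon on mm10 per the submitters' processing notes, and every value was a whole number. The version, annotation and filters behind them, not given in the sources used here, remain unknown. CPM were computed on column totals, of 19603269 to 20376554 per library, and RPKM with exon lengths from GENCODE mouse release M21 (GRCm38).

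Calls come from edgeR 4.0.16 in R 4.3.3 (robust quasi-likelihood test, TMM factors, minimum count 10, Benjamini-Hochberg over 12819 genes, threshold 0.05), tested on simulated data. DESeq2 1.42.0, limma-voom (limma 3.58.1), RLE factors, column totals, other filters, a replicate block and leaving out each library were alternatives. Intervals are exact binomial (95%).

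The members and lists were chosen with earlier results of these data known: 14 pathway and 11 cell type lists then, 7 pathway lists and all roles after the members were known. Named members are the 15 with the highest shSCR mean, the 15 with the highest ratio of summed CPM (shPostn plus 0.05) and those on the 14 lists; other members serve as examples of a role. A few genes and what rests on them are not reported here.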

Additional observations from a re-analysis of the deposited data

How the results depend on the processing

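The number of members depended on the limits: 133 genes met a ratio of 2, 37 a ratio of 4, and 32 a mean shSCR level of 5 CPM or more, against 73 as reported; leaving out 1 library gave 73 to 160. Of 330 fold changes of named members under the alternatives, 29 moved by more than the replicate spread, by at most 2.14 on the log2 scale; their sign is fixed by the rule. Over the whole table, leaving out 1 library gave 189 to 1192 genes lower in shPostn and 118 to 1028 genes higher, and DESeq2 called 940 higher. In the 14 pathway lists, 28 calls were lower and 8 higher as reported, 9 to 42 and 3 to 14 without 1 library, and 15 higher by DESeq2. Of these 28 lower calls, 15 were among the 22 tested genes of the unfolded protein response and ATF4. That list holds no member, so the pooled counts do not describe the members' companions alone. Over all genes tested, 5.53% were lower and 4.61% higher. Among the relatives by name, there were 0 to 30 lower and 1 to 19 higher calls without 1 library, and 17 each by DESeq2. Same-numbered libraries of the groups had correlations of −0.072, −0.126 and −0.442 of their deviations, so the numbers were not taken as pairs; with a replicate block there were 414 lower and 321 higher calls, and 17 lower calls in the lists. The causes of these shifts were not tested. The depth leaves members at 1 to 2 CPM with few reads in shPostn, so their remaining share is known only within the intervals given.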
